A study of Hordeum vulgare with 18 samples.

Results

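Shoots of barley, a cereal crop, were compared after 1 h at 35.5 °C and after 1 h at 21 °C. The comparison rests on 6 of the 18 small RNA libraries of the study, chosen by their labels: 3 libraries of heated shoots and 3 of shoots kept at the control temperature. All plants were of the spring line Rolap, 2 weeks old, grown at 21 °C by day and 15 °C by night in soil with sand, and both groups were taken from plants grown in parallel. The other 12 libraries cover 3 h and 6 h at the same temperatures. The labels call the 3 libraries of a group biological replicates, and all 6 libraries of 1 h were sequenced on lane 1. They give no replicate numbers, so the numbers used here follow the order in which the libraries are listed. The labels do not say how many plants were ground for a library.

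A microRNA (miRNA) is cut from a hairpin precursor as a duplex of short strands that overhang each other at their 3′ ends. One strand, the mature miRNA, usually stays in an ARGONAUTE protein and guides the silencing of matching mRNAs, and the strand across from it, called the passenger or star strand, is mostly degraded. In cereals, miR444 acts on mRNAs of MADS-box transcription factors, miR169 on those of NF-YA factors, miR166 on those of HD-ZIP III factors that pattern leaves and vessels, and miR319 on those of TCP factors that limit leaf growth. These roles are those of the families and were not assigned to single sequences.

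The table of 1 h listed 4750 distinct sequences of 18 to 25 nt in 170 numbered families, each matching a known plant miRNA precursor with 0 mismatches. The reference precursors came from 26 species, so a name such as MIR444c is that of the precursor matched and need not be a barley locus. By annotation 126 sequences were mature 5′ arms, 123 were mature 3′ arms and 4501 were precursor sequences. The 6 libraries held 2069641 to 3214221 counts in the table. The 10 most abundant sequences took 80.3% of them. Levels are CPM, counts scaled to the table's total and its TMM factor, given as mean ± SD over n = 3 libraries, and 3 counts, the floor for a value of 0, stood for 0.965 to 1.32 CPM, which covers counting error only. A value such as -1.75 ± 0.22 is the log2 fold change from control to heat and its SE, by edgeR's quasi-likelihood test, and a call is a Benjamini-Hochberg adjusted p under 0.05. In whole shoots, fewer cells of a type and less RNA per cell cannot be told apart.

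After 1 h of heat, 9 sequences were lower and 4 were higher. The lower ones came from miR444 (4), miR169 (3), miR166 (1) and miR319 (1), and all 4 higher ones came from miR444. The 13 sequences are printed here because every other result is read against them, with T for U as in the deposited table and with bases 2 to 8, the seed, in capitals.
MIR444c, 21 nt: cGGCAAGCtagagacagcaac
MIR444c, 20 nt: gGCAAGCTagagacagcaac
MIR444c, 19 nt: gCAAGCTAgagacagcaac
MIR444c, 18 nt: cAAGCTAGagacagcaac
MIR169c, 21 nt: cCTAGTTCtcttcttctggtg
MIR169c, 20 nt: cCTAGTTCtcttcttctggt
MIR169d, 21 nt: cGGGATGCagccaaggatgac
MIR166b, 21 nt: gAATGACGccgggtccgaaag
MIR319a/MIR319b, 20 nt: aGCTGCCGactcattcatcc
MIR444b, mature 3′, 21 nt: tGCAGTTGctgcctcaagctt
MIR444a/MIR444b, 20 nt: tGCAGTTGctgcctcaagct
MIR444a, 21 nt: tGCAAGTCgtgcagttgctgc
MIR444b, 18 nt: gCATGAGGcaacaactgc
The first 9 were lower and the last 4 higher. The MIR169c pair shares 1 seed, as do the mature MIR444b sequence and its 20 nt form. The 4 MIR444c sequences end at the same base and start 1 base apart, so their seeds are shifted.

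The background for these counts is 740 sequences that passed the filter on low counts and were tested, of which 13 (1.76%) were called, 4 (0.541%) higher and 9 (1.22%) lower. An unadjusted p under 0.05 was reached by 79 (10.7%). For each of the 13 calls the heat libraries lay apart from the control libraries. The same held for 123 of the 740 (16.6%), 65 higher (8.78%) and 58 lower (7.84%). The authors' deposited table gives 15 sequences with a corrected p under 0.05, and all 13 calls are among them. Their values come from the same libraries, so this overlap is not separate support. Each of the 13 was also called with DESeq2 and with every other scaling tried. Without heat replicate 2 the number of calls was 23.

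**Figure D1:**
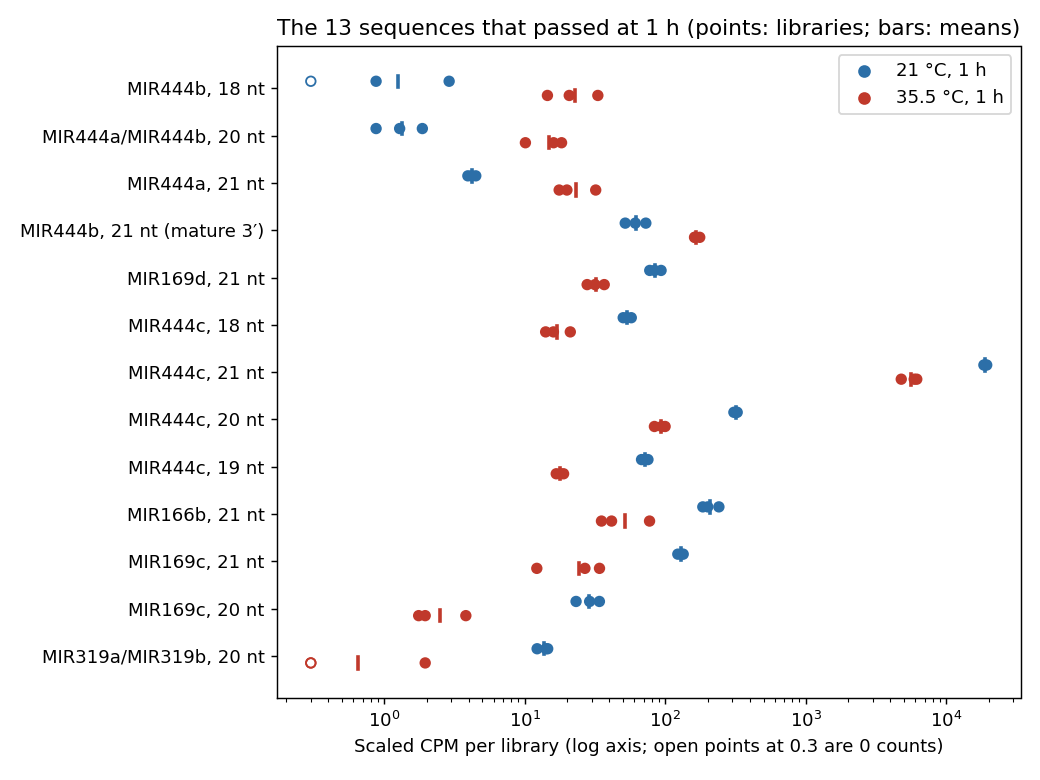
Scaled CPM of the 13 called sequences in each of the 6 libraries, on a log axis. Blue points are control libraries, red points heat libraries, bars group means and open points libraries with 0 counts. In each row the heat and control points are separate, and the MIR444c 21 nt sequence lies at 18515 to 19388 CPM in control and 4779 to 6162 CPM in heat while no other point is above 325 CPM.

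The largest fall in counts was that of the MIR444c 21 nt sequence. It stood at 19388, 18515 and 18904 CPM in the control libraries and at 6162, 5910 and 4779 CPM in the heat libraries. All heat libraries were thus below all controls, and the spread within either group was small beside the gap (5617 ± 736 against 18935 ± 437 CPM, log2 fold change -1.75 ± 0.22, edgeR adjusted p = 0.00144). The 20 nt form stood at 308, 325 and 319 CPM in control and 94.4, 99.7 and 83.7 CPM in heat (-1.78 ± 0.22). The 19 nt form fell by 2.00 ± 0.27 and the 18 nt form by 1.65 ± 0.30 on the log2 scale, with edgeR adjusted p of 0.00151 and 0.00897. The call of the 18 nt form was lost when a log2 fold change of at least 1 was asked for (adjusted p = 0.388).

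The MIR444c 21 nt sequence and the most abundant mature miR444 sequence face each other as a miRNA and its star strand do. Placed antiparallel, 18 of 19 facing bases pair, 16 as Watson-Crick pairs and 2 as G:U pairs, with 2 bases over at each 3′ end. The pair is shown with the paired bases of the first strand in capitals.
MIR444c, 21 nt: CGGCAAGCTaGAGACAGCAac
The mature strand is shown with its seed in capitals.
MIR444b/MIR444c, mature 3′, 21 nt: tGTTGTCTcaagcttgctgcc
The lead sequences of the tested overlap groups, which are defined below, form 1046 pairs within a family. Of these, 28 (2.68%) paired over at least 17 bases with such ends. The mature strand stood at 14631, 12888 and 11470 CPM in control and 11543, 8879 and 6771 CPM in heat. Its ranges overlapped by 1 heat library, and its change did not pass (-0.52 ± 0.25, edgeR adjusted p = 0.471). In control the strand listed as precursor was thus more abundant than the mature strand in every library, and in heat it was less abundant in every library.

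The forms of the MIR444c arm that fell shared a 3′ end. The forms are printed with the bases past the end of the 18 nt form that starts at the same base as the 21 nt sequence in capitals.
18 nt, shortened at the 3′ end: cggcaagctagagacagc
19 nt, shortened at the 3′ end: cggcaagctagagacagcA
21 nt: cggcaagctagagacagcAAC
22 nt: cggcaagctagagacagcAACT
20 nt, shortened at the 5′ end: ggcaagctagagacagcAAC
19 nt, shortened at the 5′ end: gcaagctagagacagcAAC
18 nt, shortened at the 5′ end: caagctagagacagcAAC
All 4 tested forms ending in the last base of the 21 nt sequence were called lower. The 18 nt form shortened at the 3′ end stood at 1052, 957 and 984 CPM in control and 1303, 860 and 1082 CPM in heat. Its groups overlapped (0.12 ± 0.23, edgeR adjusted p = 0.93). The 22 nt form stood at 373 ± 17.8 CPM in control and 297 ± 18.5 in heat, separate but with a small change (-0.33 ± 0.21, edgeR adjusted p = 0.675), and the 19 nt form shortened at the 3′ end had overlapping ranges (-0.18 ± 0.34, adjusted p = 0.93). None of the tested forms with another 3′ end passed, and their values ran from -0.85 to 0.12.

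Shares of the arm were tested for each sequence as its counts over the rest of its overlap group. An overlap group holds the sequences of a family that share at least 16 exact bases in register with its most abundant member. Of 672 sequences, 7 (1.04%) passed limma with Benjamini-Hochberg adjustment. For the MIR444c 21 nt sequence the share was 90.8, 90.9 and 90.8% in control and 77.4, 81.0 and 75.6% in heat (log2 ratio to the rest -1.48 ± 0.16, limma adjusted p = 0.00179). The 18 nt form shortened at the 3′ end made up 4.93, 4.70 and 4.73% in control and 16.4, 11.8 and 17.1% in heat (1.80 ± 0.19, limma adjusted p = 0.00179). The share of the 22 nt form was 1.79 ± 0.0783% in control and 4.15 ± 0.474% in heat (1.24 ± 0.17, limma adjusted p = 0.0102). These rises are of shares, and the CPM of neither form passed the test of levels. The 21 nt sequence held most of the group, so a fall of it raises the share of any form that stays level. The share calls within this group are thus not separate results. The 7 calls fell to 2 without control replicate 1, to 3 without control replicate 3 or heat replicate 1 and to 4 without heat replicate 3.

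**Figure D2:**
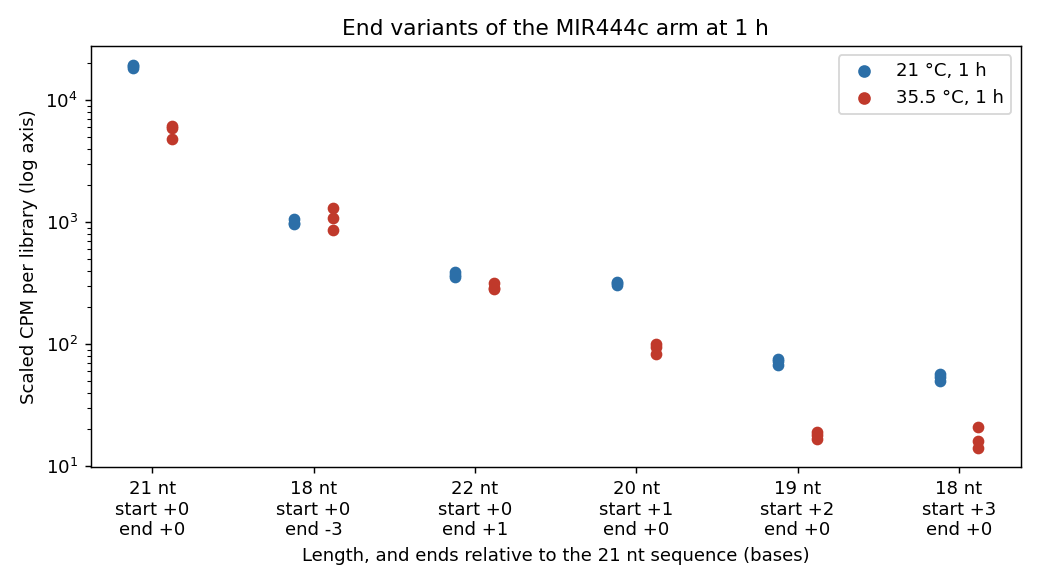
Scaled CPM of 6 forms of the MIR444c arm per library, on a log axis. Blue points are control and red points heat libraries, and the labels give each form's length and how far its ends lie from those of the 21 nt sequence. The 4 forms with an end offset of 0 are separated between the groups, the 22 nt form, ending 1 base later, is separated by a narrower gap, and the points of the form ending 3 bases earlier overlap.

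Among the miR444 sequences that rose, the mature 3′ arm named MIR444b was the most abundant. It stood at 61.2, 72.7 and 51.9 CPM in control and 176, 163 and 161 CPM in heat, so each heat library was above each control (1.43 ± 0.24, edgeR adjusted p = 0.00758). Without control replicate 3 it missed the threshold (adjusted p = 0.0618), as it did when a log2 fold change of at least 1 was asked for (adjusted p = 0.661). The form 1 base shorter at its 3′ end was rarer, with 2, 4 and 5 counts in control and 48, 23 and 41 in heat. Its fold change was larger but rests on those few control counts (1.34 ± 0.498 against 14.8 ± 4.22 CPM, 3.41 ± 0.56, edgeR adjusted p = 0.0059). The 20 nt form made up 2.16 ± 1.07% of its overlap group in control and 7.70 ± 1.86% in heat, but it was not among the shares that passed. The share of the 21 nt form was lower, 87.5 ± 2.92% in heat against 95.8 ± 1.66% in control (log2 ratio to the rest -1.66 ± 0.31, limma adjusted p = 0.0474), although its level rose.

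A pair of near-identical mature miR444 arms did not pass. The mature 3′ sequence tGCAGTTGctgtctcaagctt, with its seed in capitals, stood at 97.8 ± 38.7 CPM in control and 82.2 ± 15.2 in heat (-0.25 ± 0.31, edgeR adjusted p = 0.861). The mature 5′ sequence tGCAGTTGttgtctcaagctt stood at 45.2 ± 5.99 and 48.2 ± 12.7 CPM (0.09 ± 0.29, edgeR adjusted p = 0.938). All 3 arms share the seed, and whether the called arm differs in its change from the other two was not tested. Each exact sequence was counted on its own, but which barley locus a shared sequence came from cannot be read from these counts.

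Of the other rising sequences, the 21 nt sequence of MIR444a overlaps the mature MIR444b arm, and the 18 nt sequence of MIR444b can pair with more than 1 mature miR444 arm. Overlapping stretches are shown, the first being the lead of a called group and not called itself, with the bases shared with the next sequence in capitals and, in the last, those shared with the one before.
MIR444a, 21 nt, upstream: ttgtggctttctTGCAAGTCG
MIR444a, 21 nt: tgcaagtcgTGCAGTTGCTGC
MIR444b, mature 3′, 21 nt: TGCAGTTGCTGCctcaagctt
The first shares 9 bases with the second, and the second shares 12 with the third. The middle sequence had 9, 13 and 12 counts in control and 84, 40 and 51 in heat, and all heat libraries were above all controls (4.20 ± 0.272 against 23.2 ± 7.72 CPM, 2.45 ± 0.42, edgeR adjusted p = 0.00767). Its call was lost without heat replicate 1 (adjusted p = 0.0707) and when a log2 fold change of at least 1 was asked for (adjusted p = 0.0546). The 18 nt sequence of MIR444b pairs best with the mature 5′ arm of MIR444b/MIR444c, whose level did not pass (0.09 ± 0.29), at 17 of 18 facing bases, 16 as Watson-Crick pairs and 1 as a G:U pair. With the called mature MIR444b arm 16 of 18 pair, all as Watson-Crick pairs. Paired bases are in capitals.
MIR444b, 18 nt, with the mature 5′ arm: GCaTGAGGCAACAACTGC
MIR444b, 18 nt, with the called mature arm: GCaTGAGGCAaCAACTGC
It had 2, 9 and 0 counts in control and 87, 33 and 53 in heat (1.26 ± 1.48 against 22.8 ± 9.48 CPM, 4.06 ± 0.73, edgeR adjusted p = 0.00897). The highest control library was below the lowest heat library, and the call was lost without heat replicate 1 (adjusted p = 0.0963) and in 1 fit of all 18 libraries (adjusted p = 0.0753).

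Summed over overlap groups, these stretches moved as their leading sequences did. Each group total, here and below, includes the counts of its leading sequence. A group call beside a called lead is thus not a separate result. In heat the lead held 87.5 ± 2.92% of the mature MIR444b group and 77.0 ± 0.842% of the group of the 18 nt sequence. It held 25.1 ± 6.20% of the group of the middle MIR444a sequence. Of 240 groups tested, 8 (3.33%) were called by edgeR, 4 higher and 4 lower, and the ranges of 42 (17.5%) did not overlap. The group of 34 sequences around the middle MIR444a sequence stood at 20.5, 20.6 and 26.9 CPM in control and 99.3, 78.6 and 96.2 in heat (2.01 ± 0.27, edgeR adjusted p = 0.000782). The group of 7 around the 18 nt sequence rose by 3.74 ± 0.55 (adjusted p = 0.00149), and the group of 15 around the mature MIR444b arm by 1.56 ± 0.24 (adjusted p = 0.00152). The call of the last was lost with a log2 fold change of at least 1 asked for (adjusted p = 0.14). The group of 11 around the upstream MIR444a sequence stood at 2.68 ± 0.936 CPM in control and 12.1 ± 2.68 in heat (2.17 ± 0.52, edgeR adjusted p = 0.045). Its call was lost in 11 of 13 alternatives, among them the removal of each library in turn, with adjusted p from 0.00984 to 0.267 over the alternatives.

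The MIR444c arm with its 31 forms fell from 20849 ± 489 to 7196 ± 824 CPM (-1.53 ± 0.21, edgeR adjusted p = 0.000782), a call lost with a log2 fold change of at least 1 asked for (adjusted p = 0.101). Of the 11 miR444 groups tested 5 were thus called. The other 6 ran from -0.49 ± 0.23 for the group of the abundant mature strand (adjusted p = 0.432) to 1.01 ± 0.43 (adjusted p = 0.342). Of the 44 tested miR444 sequences, 4 were called higher and 4 lower. The miR444 total, at 36920 ± 1830 CPM in control and 19269 ± 3141 in heat, missed the threshold with edgeR (-0.94 ± 0.19, adjusted p = 0.0596) and passed in 6 of 14 alternatives, with adjusted p from 0.00013 to 0.999.

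The miR169 sequences that fell came from MIR169c and MIR169d precursors. The MIR169c 21 nt sequence stood at 130, 134 and 123 CPM in control and 12.2, 26.8 and 34.0 CPM in heat (-2.41 ± 0.35, edgeR adjusted p = 0.00255). The form 1 base shorter at its 3′ end had 53, 90 and 91 counts in control and 10, 4 and 5 in heat (-3.48 ± 0.45, edgeR adjusted p = 0.00144). In both, each heat library was below each control, and their overlap group of 15 forms had the lowest p of all 240 groups (-2.52 ± 0.30, edgeR adjusted p = 0.000688). No listed mature sequence overlaps either of them without mismatch by more than 4 bases.

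The MIR169d 21 nt sequence lies beside a mature arm rather than apart from it, sharing its last 14 bases with a mature miR169 sequence. It stood at 83.9, 77.5 and 93.3 CPM in control and 27.8, 31.6 and 36.8 CPM in heat (-1.40 ± 0.26, edgeR adjusted p = 0.00944), and was not called without control replicate 3 (adjusted p = 0.0608) or with a log2 fold change of at least 1 asked for (adjusted p = 0.777). A form 1 base longer at the 3′ end, cgggatgcagccaaggatgact, stood at 56.0 ± 10.7 and 27.3 ± 3.66 CPM (-1.03 ± 0.29, edgeR adjusted p = 0.146, and called by DESeq2). The most abundant mature miR169 sequence stood at 873, 936 and 869 CPM in control and 1127, 696 and 749 CPM in heat, and these ranges overlap (-0.06 ± 0.24, edgeR adjusted p = 0.942). The family total was 4861 ± 197 CPM in control and 4335 ± 603 in heat (-0.17 ± 0.19, adjusted p = 0.747). Of the 78 tested miR169 sequences 52 had a value below 0, with a median of -0.22. Over all 740 tested sequences 341 had a value below 0, with a median of 0.07. Forms of 1 stretch are counted singly here and are not separate items.

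The MIR166b sequence faces the most abundant sequence of the libraries. Of 19 facing bases 17 pair, all as Watson-Crick pairs, with 2 bases over at each 3′ end. Paired bases of the first strand are in capitals, and the second strand carries its seed in capitals.
MIR166b, 21 nt: GAATGAcGCCgGGTCCGAAag
MIR166e/MIR166b, 21 nt: tTCGGACCaggcttcattccc
The MIR166b sequence stood at 201, 185 and 241 CPM in control and 77.2, 35.1 and 41.4 CPM in heat, without overlap (-2.02 ± 0.32, edgeR adjusted p = 0.00482). Its call was lost when a log2 fold change of at least 1 was asked for (adjusted p = 0.0546). The facing strand, which the table lists as a precursor sequence, stood at 225013, 255180 and 249919 CPM in control and 193951, 279697 and 317906 CPM in heat, with the control range inside that of heat (0.12 ± 0.25, edgeR adjusted p = 0.93).

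A pair of mature 5′ arms of miR166 had values below 0 without an edgeR call. That of MIR166c, ggaacgttggctggctcgagg, stood at 130 ± 22.4 CPM in control and 67.0 ± 3.42 in heat (-0.95 ± 0.25, edgeR adjusted p = 0.108, and called by DESeq2), and its overlap group of 17 forms at -0.88 ± 0.23 (edgeR adjusted p = 0.0729, and called by DESeq2). The group around the mature 5′ arm of MIR166e, ggaatgttgtctggttggaga, stood at 109 ± 9.70 and 58.3 ± 17.2 CPM (-0.90 ± 0.28, adjusted p = 0.155, and called by DESeq2). Within that group the share of the arm was higher in heat (log2 ratio to the rest 1.55 ± 0.29, limma adjusted p = 0.0474), while the share of the MIR166b sequence in its own group was lower, 84.1 ± 4.95% in heat against 94.2 ± 1.52% in control (-1.61 ± 0.31, limma adjusted p = 0.0474). The miR166 reads share sequence with those of miR165 and miR5168, so their split between families follows the authors' annotation and is uncertain.

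The miR319 sequence had 28, 44 and 39 counts in control and 0, 0 and 5 in heat (13.6 ± 1.24 against 0.652 ± 1.13 CPM). The fitted fold change of -4.26 ± 0.86 (edgeR adjusted p = 0.0192) rests on 5 counts in heat replicate 3. Without that library it was -8.16 against heat libraries at 0 counts, which depends on the prior count and is no bound, and the call was lost without control replicate 2 or 3 or heat replicate 1 (adjusted p = 0.0591 to 0.0963) and with a log2 fold change of at least 1 asked for (adjusted p = 0.0546). The form 1 base longer, agctgccgactcattcatcca, had a wider spread in heat (4.43 ± 3.98 against 21.2 ± 7.01 CPM, -2.26 ± 0.66, edgeR adjusted p = 0.163, and called by DESeq2). Their overlap group of 8 forms was lower in each heat library, at 4.95, 9.22 and 2.35 CPM against 42.4, 37.3 and 32.8 (-2.77 ± 0.47, edgeR adjusted p = 0.00288), and this call held without any 1 library. The most abundant mature miR319 sequence stood at 985 ± 77.0 CPM in control and 1242 ± 282 in heat (0.33 ± 0.24, edgeR adjusted p = 0.709).

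Precursor and mature annotations were compared next. By match type, 12 of 601 tested precursor sequences were called (2%), 0 of 76 mature 5′ arms (0%) and 1 of 63 mature 3′ arms (1.59%). The precursor label covers unlike things. With 40.1% of all counts, 2081 precursor sequences overlap a listed mature sequence by at least 16 bases without a mismatch and are end variants of it. The other 2420 have no such overlap and are called here sequences outside the mature arms. A sequence that differs from a mature arm by 1 base can also fall in this class, so it can hold near-identical forms of mature arms. This split was drawn after the data were seen. Of the 403 tested end variants 1 was called (0.248%), and of the 198 tested sequences outside the mature arms 11 were (5.56%). All 9 lower calls and 2 of the 4 higher ones lay outside the mature arms. Of these 11, the MIR169d sequence overlaps a listed mature sequence without mismatch by 14 bases and the MIR444a sequence by 12. No other does so by more than 5 bases. The difference between the classes was not tested.

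**Figure D3:**
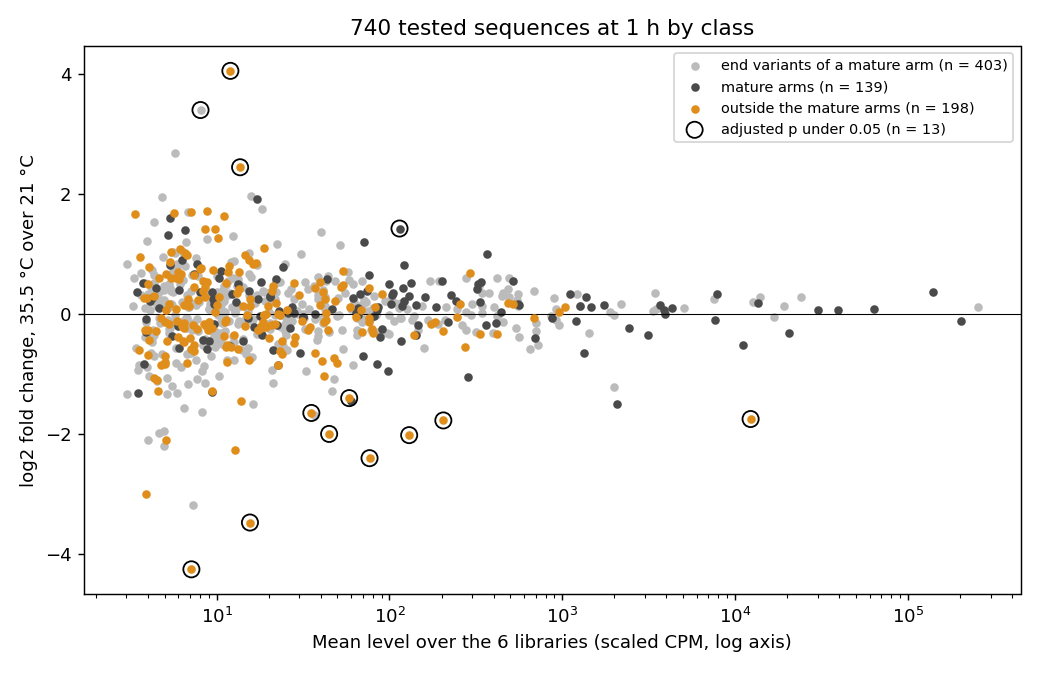
Log2 fold change of heat over control against the mean level (scaled CPM, log axis) of the 740 tested sequences. Grey points are end variants of a mature arm, black points mature arms and orange points sequences outside the mature arms, and rings mark the 13 calls. The 9 rings below 0 are all around orange points, while the 10 most abundant sequences, at the right, lie between -0.31 and 0.37.

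Taken as shares of all counts, the match types differed by less than the spread between libraries. Precursor sequences made up 42.3 ± 1.68% in control and 42.6 ± 1.28% in heat (exact two-sided permutation p = 0.7, where 0.1 is the smallest p that 3 against 3 libraries can give). Mature 5′ arms made up 49.3 ± 1.18% and 49.2 ± 2.33% (exact permutation p = 1), and mature 3′ arms 8.38 ± 0.620% and 8.20 ± 1.40% (exact permutation p = 0.9). All 3 adjusted values were 1. The sequences outside the mature arms made up 3.27, 2.86 and 3.07% in control and 2.11, 1.55 and 1.31% in heat, so the groups did not overlap. Without the MIR444c 21 nt sequence the values were 1.20, 1.07 and 1.18% in control and 1.33, 0.995 and 0.916% in heat, and the groups overlapped. The miR444 part was 2.26 ± 0.142% in control and 0.886 ± 0.279% in heat, and the miR169 part 0.110 ± 0.00366% and 0.0679 ± 0.0147%, both without overlap. Both parts hold called sequences, so their separation is not a separate result. The parts of miR159, miR5048, miR160, miR397 and the other families overlapped. Without miR444 the class made up 0.805 ± 0.0658% in control and 0.770 ± 0.136% in heat, and the groups overlapped.

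**Figure D4:**
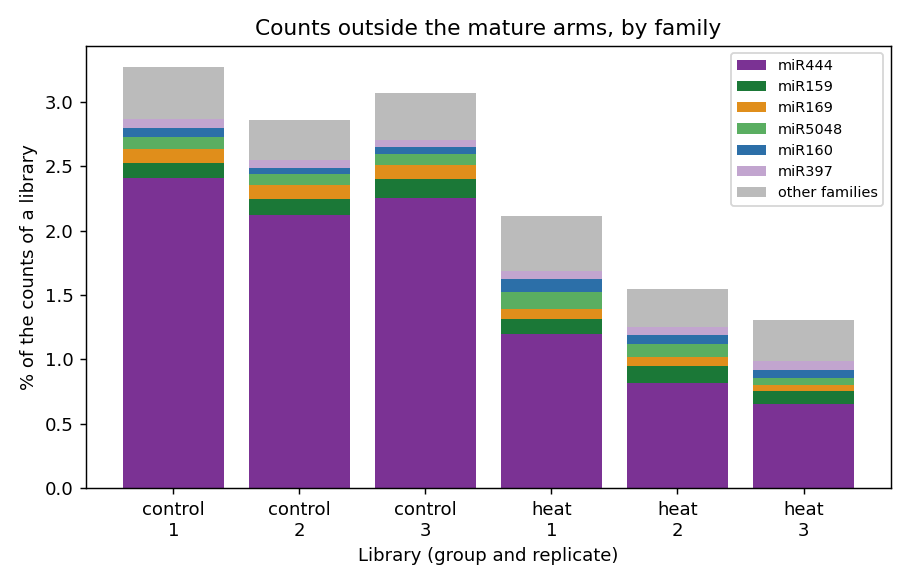
Percent of a library's counts held by sequences outside the mature arms, for the 6 libraries, with the families stacked. The bars reach 2.86 to 3.27% in the control libraries and 1.31 to 2.11% in the heat libraries, and the purple miR444 section makes up most of the gap.

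Within families, the log2 ratio of precursor to mature counts was tested for 38 families with enough counts of both. None was called by limma (0%), and 4 had an unadjusted p under 0.05 (10.5%). They were miR444 (-0.74 ± 0.19, limma adjusted p = 0.162), miR168 (-0.66 ± 0.24, adjusted p = 0.335), miR827 (0.77 ± 0.28, adjusted p = 0.335) and miR169 (-0.45 ± 0.18, adjusted p = 0.337). With end variants counted as mature arms, an alternative added after the data were seen, 2 of 30 families passed (6.67%), and both were lower in heat. They were miR319 (-2.81 ± 0.56, limma adjusted p = 0.00712) and miR444 (-0.88 ± 0.19, limma adjusted p = 0.00733). For miR444 this ratio was 0.47, 0.59 and 0.80 in control and -0.48, -0.25 and -0.05 in heat. For miR319 it was -8.49, -8.55 and -8.42 in control and -10.7, -10.6 and -12.5 in heat. The precursor side of these ratios includes the called MIR444c arm and the called miR319 group. That miR319 group had 13, 21 and 6 counts in heat. Both passes are thus not separate from those calls.

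Sequence features of the calls were counted beside those of all tested sequences. The 9 lower sequences are not 9 separate items, since 4 are nested forms of the MIR444c arm and 2 of the MIR169c stretch. None of the 9 started with T, while 333 of the 740 tested did (45%), and 5 started with C. Of the 4 higher ones 3 started with T. The precursors that the 9 lower sequences matched were of rice, Brachypodium, Aegilops and soybean. A barley precursor was matched by 0 of the 9, by 2 of the 4 higher ones and by 90 of the 740 tested, and nothing is read from so few. Over the whole table, shares by first base differed by less than could be called. Sequences starting with C made up 6.12 ± 0.786% of counts in control and 4.98 ± 0.729% in heat (exact two-sided permutation p = 0.2), and those starting with T 89.7 ± 0.634% and 91.0 ± 1.46% (exact permutation p = 0.2).

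Family totals did not pass at 1 h. Of 75 families tested edgeR called 0 (0%), 6 had an unadjusted p under 0.05 (8%), the ranges of 12 did not overlap (16%), and DESeq2 called 1 (1.33%), miR444. Besides miR444, the families with an unadjusted p under 0.05 were miR5200, whose target in grasses is an FT flowering gene, and miR1130, miR9779, miR6196 and miR5083. The miR5200 total stood at 22.7, 32.5 and 21.6 CPM in control and 14.8, 11.9 and 12.1 in heat, which is separate but at low counts (-0.99 ± 0.30, edgeR adjusted p = 0.346). The miR1130 total had the highest value of the 75 (1.38 ± 0.47, adjusted p = 0.37). The lowest was that of miR5051, at 4364, 2703 and 2576 CPM in control and 347, 2817 and 256 CPM in heat (-1.50 ± 0.80, adjusted p = 0.558). Its heat replicate 2 lay among the controls, and without that library the family was called (-3.42, adjusted p = 1.59e-06).

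Lists of families with a shared role were read against all 740 tested sequences, with 13 calls (1.76%) and a median of 0.07. The list of MADS-box and cereal families had 4 higher and 4 lower of 90 tested sequences, all miR444 (median -0.06). The NF-YA and GRAS list, miR169 and miR171, had 3 lower of 92 (median -0.15), and the leaf development list, miR159, miR319 and miR396, had 1 lower of 121 (median 0.21). The families that earlier work linked to heat in barley had 1 lower of 119, the MIR166b sequence (median 0.09), with miR160 at 0.26 ± 0.19 and miR167 at -0.24 ± 0.25. Of the same list miR5175 was not tested, with a sum of 5 counts in heat against 0.

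The copper list holds miR397, miR398, miR408 and miR528, which act on mRNAs of copper proteins, and the phase change list miR156 and miR172, which set the passage from juvenile to adult shoots. No sequence was called among the copper (32 tested), phase change (46), auxin (26), silencing (28) and phosphate and sulfate (13) lists. An unadjusted p under 0.05 was reached by 2, 2, 3, 7 and 0 of them. Over all 740 tested sequences 1.76% were called and 10.7% had an unadjusted p under 0.05, so nothing is read from 0 calls in lists this small. The silencing list holds miR168, which acts on ARGONAUTE mRNA. An end variant of its 3′ arm, cccgccttgcaccaagtga, had 28, 13 and 8 counts in control and 95, 32 and 64 in heat (1.98 ± 0.55, edgeR adjusted p = 0.148, and called by DESeq2). A form of the same arm, ccgccttgcaccaagtgaat, had a lower share of its group in heat (log2 ratio to the rest -0.99 ± 0.19, limma adjusted p = 0.0474). In the copper list the miR528 arm cctgtgcctgcctcttccatt stood at 146, 67.9 and 48.1 CPM in control and 26.6, 39.1 and 30.1 in heat (-1.45 ± 0.39, edgeR adjusted p = 0.132). DESeq2 called it (adjusted p = 0.0165), as did edgeR with implied library totals (0.0345), with no filter on low counts (0.00359) and without control replicate 3 (-1.75, 0.0323). Control replicate 1 was the highest, and without it the value was -0.89 (adjusted p = 0.383). The triggers of reproductive phased RNAs, miR2118 and miR2275, had too few counts to test.

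Of the 6 sequences next in order of p, 4 were of miR166, miR169 or miR319, families that hold a call. These families also hold many of the 740 tested sequences, with 70, 78 and 16, so nothing is read from that number. The 4 include the longer form of the called MIR169d sequence given above. The miR319 form cttggactgaagggtgctcc stood at 9.62, 7.72 and 7.84 CPM in control and 19.8, 19.3 and 46.1 in heat (1.76 ± 0.43, edgeR adjusted p = 0.084). A miR169 mature 3′ sequence, ggcagtctccttggctag, stood at 7.14 ± 3.29 CPM in control and 27.1 ± 13.6 in heat (1.92 ± 0.50, edgeR adjusted p = 0.108). DESeq2 called both. The 10 most abundant sequences had values between -0.31 ± 0.27, a miR167 arm, and 0.37 ± 0.39, the most abundant miR159 arm, and none passed (edgeR adjusted p from 0.74 to 0.962). That miR159 arm stood at 91145, 141308 and 133545 CPM in control and 73947, 132088 and 266659 CPM in heat, so heat replicates 1 and 3 lay on either side of all controls. Overlap groups called by DESeq2 alone were, besides the 2 of miR166, a miR396 group of 12 forms (12.5 ± 6.06 CPM in control, 33.6 ± 4.81 in heat, 1.42 ± 0.40, edgeR adjusted p = 0.0996) and a miR156 group of 6 forms (4.27 ± 3.50 and 15.9 ± 2.84 CPM, 1.92 ± 0.57, edgeR adjusted p = 0.132).

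The libraries of 3 h and 6 h are separate samples with their own controls, so they show whether the calls at 1 h recur. At 3 h the heat libraries were on lane 1 and the controls on lane 2, so lane and temperature cannot be told apart there, while all 6 libraries of 6 h were on lane 2. Of the 13 sequences 11 could be tested at each later time, and all 11 had the same sign as at 1 h at both. Over all sequences tested at both times the sign was the same for 63.1% of 661 at 3 h and 60.1% of 632 at 6 h. Of the 11, 8 were called again at 3 h and 10 at 6 h, beside 31 of 713 sequences (4.35%) called at 3 h and 82 of 675 (12.1%) at 6 h.

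The lower sequences recurred more fully than the higher ones could be followed. All 9 were tested later, and 8 passed at 3 h and 9 at 6 h. The MIR444c 21 nt sequence stood at -1.87 ± 0.22 at 3 h and -1.77 ± 0.13 at 6 h (edgeR adjusted p = 0.00256 and 0.000275). The MIR169c 21 nt sequence stood at -3.13 ± 0.39 and -2.99 ± 0.29, and the MIR166b sequence at -1.73 ± 0.36 and -2.43 ± 0.31. The MIR169d sequence missed the threshold at 3 h, with 309 counts in heat against 617 in control (adjusted p = 0.123). Of the higher ones, the mature MIR444b arm stood at 1.52 ± 0.38 at 3 h (adjusted p = 0.0609) and passed at 6 h (1.22 ± 0.20, adjusted p = 0.0073). The MIR444a 21 nt sequence stood at 0.28 ± 0.43 and 1.39 ± 0.70 and passed at neither. The 20 nt form of the mature arm was too rare to test, with 50 heat counts against 3 control counts at 3 h and 43 against 1 at 6 h. For the MIR444b 18 nt sequence the same sums were 3 against 9 and 10 against 4, and it was not tested within either later time.

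**Figure D5:**
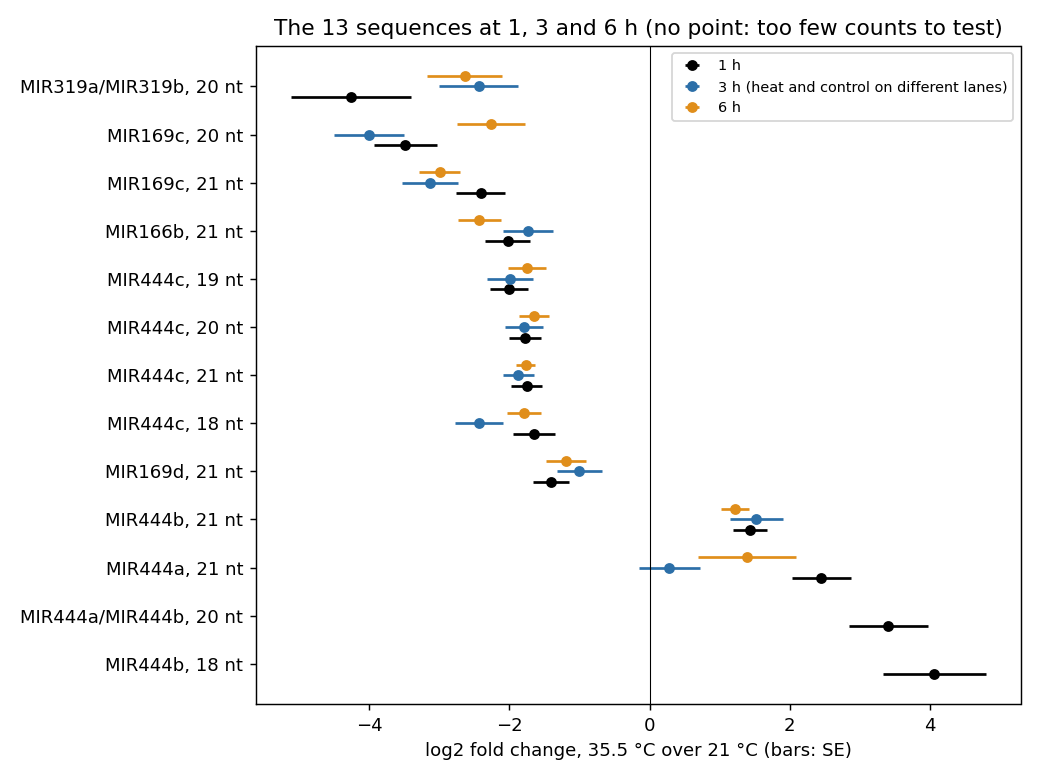
Log2 fold change of heat over control of the 13 sequences at 1 h (black), 3 h (blue) and 6 h (orange), with bars for the SE. The 9 lower sequences lie left of 0 at all 3 times, the mature MIR444b arm lies right of 0 at all 3, and the bottom rows have a point at 1 h only because later counts were too low to test.

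The difference between the heat effects at 6 h and at 1 h was tested itself in 1 fit. It was called for 0 of 961 sequences (0%) with edgeR, and 84 (8.74%) had an unadjusted p below 0.05. DESeq2 called 5, and edgeR called 9 without heat replicate 2 of 1 h. For the 13 sequences the adjusted p of this difference ran from 0.597 for the MIR169c 20 nt sequence (1.33 ± 0.66) to 0.999. The MIR444a 21 nt sequence had a difference of -0.93 ± 0.75 (adjusted p = 0.86) and the MIR444c 21 nt sequence one of 0.12 ± 0.24 (adjusted p = 0.969). A p above the threshold does not show that the effects were alike.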

How the data were processed

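Small RNAs of 6 libraries were analysed, 3 of shoots after 1 h at 35.5 °C and 3 after 1 h at 21 °C, grouped by the labels' treatment. The libraries were made with a TruSeq small RNA kit, per the labels' protocols, and carry no molecular identifiers, so floors cover counting error only. An SD or SE given here includes the spread between libraries. The SE beside an edgeR value is the size of its log2 fold change divided by the square root of the test's F statistic. The deposited counts are whole reads per distinct sequence and library, per the file headers. The authors also gave RPM, in columns named normalized expression values per the file headers. They equal the counts times 1 constant in each library and so imply totals of 32637523 to 44219180 at 1 h. The authors' p-value with its correction and their signed fold score come from an "EDGE test" with tagwise dispersions, per the file headers. The aligner, counter and miRNA release used are not named in the labels or headers. A line of the table that holds no values was left out. Sequences were not placed on a genome.

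The members, classes and lists were chosen with earlier results of these data known. The main test of the counts was the quasi-likelihood test of edgeR 4.0.16, run in R 4.3.3 (TMM factors of 0.815 to 1.27, filterByExpr with a minimum count of 10 and a minimum total of 15). Totals of families and groups were scaled as the sequences were. Ratios were tested with limma 3.58.1 on log2 values (pseudocount 0.5, mean of at least 10 counts), and shares by exact permutation, two-sided, in scipy 1.17.1. Replicates correlated at 0.928 to 0.958 on log2 values and differed by far more than counting noise (chi-square over degrees of freedom 20.1 to 246). The scripts were tested on simulated counts. DESeq2 1.42.0, other scalings and filters, and leaving out each library were the alternatives. Named sequences are the calls, the 6 next in p, the 10 most abundant, the most abundant mature sequence of each family with a call, the called families, groups and shares, and the families of the lists. The near-identical mature arms, the MIR444c forms, the miR319 21 nt form and miR1130, miR9779, miR6196 and miR5083 were named after their values were seen. Other software was pandas 2.3.3, numpy 2.4.6 and matplotlib 3.10.9 in Python 3.11.15.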

Additional observations from a re-analysis of the deposited data

How the results depend on the processing

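The 13 calls became 23 with DESeq2, 30 with no filter on low counts, 7 with a log2 fold change of at least 1, and 11 to 23 when each library was left out in turn, the 23 without heat replicate 2. For families 0 calls became 1 with DESeq2, with RLE factors, with implied library totals and in 1 fit of all 18 libraries, 2 with no filter, and 0 to 1 with a library left out, the 1 without heat replicate 1 or 2. The 8 overlap groups became 4 with a log2 fold change of at least 1 and 7 to 10 with a library left out. With a log2 fold change of at least 1 asked for, the groups lost were the MIR444c arm (adjusted p = 0.101), the mature MIR444b group (0.14), the MIR166b group (0.072) and the upstream MIR444a group (0.209). The MIR166b group was also lost with library size scaling (0.0556), and the upstream MIR444a group in most alternatives. The 7 shares became 4 with a mean of at least 50 counts and 2 to 9 with a library left out, with 2 without control replicate 1, 3 without control replicate 3 or heat replicate 1, and 4 without heat replicate 3. The 0 precursor ratios became 2 with end variants counted as mature. The 0 differences between 6 h and 1 h became 5 with DESeq2, 2 with no filter, and 0 to 9 with a library left out, the 9 without heat replicate 2. The causes were not tested.

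Implied library totals moved the median of all sequences from 0.07 to -0.17 and turned small positive values negative. For the abundant sequences these were -0.15 (MIR166e/MIR166b), -0.17 (MIR168), -0.20 (MIR5168), -0.16 (MIR396c), -0.14 (miR396, 18 nt) and -0.11 (MIR166m). For families they were -0.15 for miR1432, -0.048 for miR156, -0.15 for miR166, -0.18 for miR168, -0.20 for miR393, -0.13 for miR397, -0.058 for miR399 and -0.13 for miR408. In the fit of all 18 libraries MIR5168 came to -0.010, MIR396c to -0.0018, miR168 to -0.0018 and miR393 to -0.022, and miR393 came to -0.0017 with DESeq2 and with RLE factors. Without the 10 most abundant sequences the difference in share was 0.0328 points for mature 3′ arms, 0.960 for mature 5′ arms and -0.993 for precursor sequences, against -0.184, -0.163 and 0.346 points with them.

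With a library left out, sign changes were met only among values that did not pass. The ranges were -0.058 to 0.26 for MIR166e/MIR166b, -0.26 to 0.67 for MIR159b, -0.040 to 0.19 for MIR168, -0.069 to 0.20 for MIR5168, -0.24 to 0.31 for MIR396c, -0.38 to 0.43 for the miR396 18 nt form, -0.32 to 0.15 for MIR5048, -0.35 to 0.057 for MIR169j/MIR169a and -0.041 to 0.30 for MIR166m. For families they were -0.093 to 0.23 for miR1432, -0.0051 to 0.39 for miR156, -0.28 to 0.65 for miR159, -0.054 to 0.25 for miR166, -0.043 to 0.16 for miR168, -0.20 to 0.043 for miR171, -0.032 to 0.092 for miR393, -0.13 to 0.028 for miR396, -0.027 to 0.32 for miR397, -0.28 to 0.48 for miR399, -0.18 to 0.43 for miR408 and -0.26 to 0.19 for miR5048. In points of share they were -0.707 to 0.610 for mature 3′ arms, -1.44 to 0.832 for mature 5′ arms, -0.378 to 1.30 for precursor sequences, -0.566 to 0.388 for first base A and -0.338 to 2.46e-05 for first base G. No paired analysis was possible because the labels give these libraries no replicate numbers. Of the 4750 sequences 740 had enough counts to be tested.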
